A study of Mus musculus with 6 samples.

Results

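The deposited data of wild-type neural stem cells (NSC) hold 1 list of H3K27me3 peaks from ChIPSeq and the gene counts of 2 RNASeq cultures. H3K27me3 is histone H3 trimethylated at lysine 27. Here each protein-coding gene of the GENCODE vM21 annotation (mouse build GRCm38, mm10) was placed both by the bp of H3K27me3 peak lying no further than 5 kb from an annotated transcription start site (TSS) and by its mean expression in the 2 cultures. Of 22028 protein-coding genes in the annotation, 21841 were listed in the count files, which hold 50686 gene identifiers in all. A gene was called marked when a peak covered at least 1 bp of this window. There were 1950 marked genes, which is 8.93% of the 21841. Expression is given in CPM, that is reads of the gene for every 1000000 reads counted on genes, and 9582 genes (43.9%) reached a mean of 10 CPM, the level taken here as expressed. Both held for 405 genes, and the leading ones are described below.

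NSC were prepared from the subventricular zone of wild-type E16.5 mouse embryos, and neither transgene nor treatment is named for them. The labels give no sex, strain or passage for the cultures, and whether the ChIPSeq and RNASeq material came from the same embryos is not stated. A further list of H3K27me3 peaks came from NSC Bmi1Over of the genotype STOPFloxBmi1;NestinCre, in which Cre under the *Nestin* promoter of neural progenitors switches on a *Bmi1* transgene. It was used only to set the wild-type peaks beside it.

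Polycomb repressive complex 2 (PRC2) places the H3K27me3 mark through its catalytic subunit Ezh2, and Polycomb repressive complex 1, which holds Bmi1, can bind the mark through its Cbx subunits. The mark is known for lying over CpG-rich promoters of developmental regulators in cells that do not use them. In stem cells it covers the *Hox* clusters and the transcription factor genes of other lineages as broad domains, and it also coats the inactive X chromosome of female cells.

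Because CpG content differed between silent genes with and without the mark, 4 promoters are shown, each for one kind of gene: the silent gene with the most bp of peak, the expressed gene with the most bp of peak, the gene of highest CPM without a peak, and the first olfactory receptor gene by symbol that had neither a peak nor a read. Each is the 250 bases before the RefSeq gene start in GRCm38.p6, read 5′ to 3′ on the strand of the gene, with every CG in capitals. Of the 21841 genes, 16476 had an entry in the RefSeq promoter table.
Hoxd3 (chr2:74711743-74711992, plus strand): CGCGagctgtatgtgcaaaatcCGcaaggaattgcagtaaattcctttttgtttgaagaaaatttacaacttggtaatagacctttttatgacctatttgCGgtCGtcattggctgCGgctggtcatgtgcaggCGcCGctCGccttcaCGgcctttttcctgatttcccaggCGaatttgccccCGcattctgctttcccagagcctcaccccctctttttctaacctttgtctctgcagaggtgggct
P4ha2 (chr11:54100674-54100923, plus strand): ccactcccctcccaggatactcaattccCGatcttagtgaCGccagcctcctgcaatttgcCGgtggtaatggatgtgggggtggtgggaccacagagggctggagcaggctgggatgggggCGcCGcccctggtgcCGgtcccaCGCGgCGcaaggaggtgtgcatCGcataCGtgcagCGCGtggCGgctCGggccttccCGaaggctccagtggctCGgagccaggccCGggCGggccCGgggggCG
Eef1a1 (chr9:78481725-78481974, minus strand): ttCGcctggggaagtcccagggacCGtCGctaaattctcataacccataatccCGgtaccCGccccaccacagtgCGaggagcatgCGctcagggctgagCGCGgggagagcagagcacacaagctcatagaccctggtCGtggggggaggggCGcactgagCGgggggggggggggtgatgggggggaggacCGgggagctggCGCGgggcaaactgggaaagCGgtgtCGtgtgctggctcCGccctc
Olfr1 (chr11:73399496-73399745, minus strand): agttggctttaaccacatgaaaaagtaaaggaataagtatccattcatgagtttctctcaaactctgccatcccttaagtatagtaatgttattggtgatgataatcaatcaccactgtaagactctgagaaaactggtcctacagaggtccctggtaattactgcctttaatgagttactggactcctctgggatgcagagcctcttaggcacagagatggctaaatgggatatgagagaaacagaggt
These stretches hold 12 CG in *Hoxd3*, 21 in *P4ha2*, 18 in *Eef1a1* and 0 in *Olfr1*. In *Hoxd3*, with 32811 bp of peak, 0 reads were counted in either culture. *P4ha2*, with 20580 bp, was at 25.3 and 7.40 CPM. *Eef1a1*, the translation elongation factor, had no peak and was at 5785 and 4877 CPM, and *Olfr1* had neither peak nor read.

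In the 2 cultures, 29325893 and 24578802 reads were counted on genes, so that 0.1 CPM stands for 2.93 and 2.46 reads and 10 CPM for 293 and 246 reads. The peak list held 12982 peaks with a median length of 355 bp, a smallest length of 200 bp and fold enrichments from 3.52 upwards. The markers of the labelled cell type were detected, as 14 of 16 neural stem cell markers reached a mean of 10 CPM, among them *Nes* (985 and 1180.3 CPM), *Sox2* (280 and 223 CPM) and *Slc1a3* (1979 and 2291 CPM). Genes of the neural lineages were read too, as 7 of 10 astrocyte, 4 of 12 oligodendrocyte and 5 of 20 neuronal genes reached a mean of 10 CPM, with highest values of 888, 1527 and 989 CPM in a culture. Markers of microglia, endothelium, mesenchyme and erythroid cells stayed at or below 2.56 CPM in both cultures, and the erythroid globin genes had no reads. As there was 1 ChIPSeq library, and genes are not replicates of a condition, no comparison below was given a test, and the SD of the 2 cultures is the only replicate error.

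Expression was lower with each step in the length of promoter peak. Over the 19891 genes without a promoter peak the median was 5.73 CPM in replicate 1 and 5.41 CPM in replicate 2 (5.57 ± 0.225, SD, n = 2). Over the 882 genes with under 1000 bp of peak in the window it was 1.19 and 1.14 CPM (1.17 ± 0.0384). Over the 613 genes with 1000 to under 4000 bp it was 0.580 and 0.488 CPM (0.534 ± 0.0647), and over the 455 genes with 4000 bp or more it was 0.0682 and 0.0407 CPM (0.0544 ± 0.0195). The 4 groups were in this order in both cultures, and the gap between any neighbouring medians was larger than their SD. Since long genes collect more reads, the same medians were taken per kb of exon, where they were 1.41 and 1.34 CPM per kb without a peak, 0.285 and 0.259 with under 1000 bp, 0.123 and 0.111 with 1000 to under 4000 bp, and 0.0208 and 0.0154 with 4000 bp or more. The order was the same. In a bulk culture, few cells with a transcript and little of it in each cell cannot be told apart.

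The share of expressed genes followed the same order. It was 46.1% ± 0.302 (SD, n = 2) of genes without a peak, 29.4% ± 0.641 with under 1000 bp, 17.0% ± 0.692 with 1000 to under 4000 bp and 8.79% ± 0.311 with 4000 bp or more, beside 43.9% of all genes. By the mean of both cultures these were 9177, 260, 104 and 41 genes. Genes without any read made up 28.5% and 28.9% of the unmarked genes in the 2 cultures. They made up 17.7% and 19.3% of those with under 1000 bp, and 40.9% and 43.3% of those with 4000 bp or more. Genes with under 1000 bp of peak therefore held a smaller share of unread genes than those with no peak at all, although their median was lower.

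**Figure D1:**
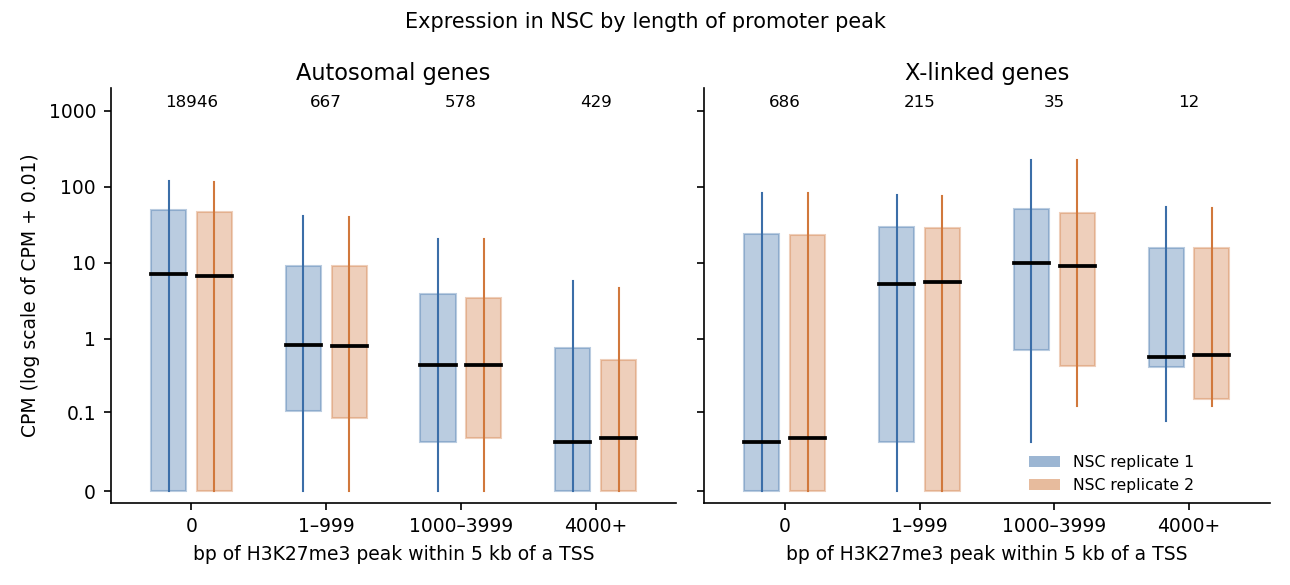
CPM in both NSC cultures (y axis, log scale of CPM + 0.01) by bp of H3K27me3 peak within 5 kb of a TSS (x axis), for autosomal genes on the left and X-linked genes on the right. Black lines are medians, boxes the quartiles and whiskers the 10th to 90th percentile of genes, with the number of genes above. On autosomes the median is lower at each step, from 6.91 to 0.0374 CPM, whereas X-linked genes with under 4000 bp of peak have higher medians than those without a peak.

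Autosomes and the X chromosome did not share this order. On autosomes the median was 7.13 and 6.69 CPM in 18946 genes without a peak and 0.0341 and 0.0407 CPM in 429 genes with 4000 bp or more, with 0.818 and 0.814 CPM and 0.443 and 0.448 CPM in between. On the X, 686 genes without a peak had a median of 0.0341 and 0.0407 CPM, whereas 215 genes with under 1000 bp were at 5.32 and 5.70 CPM and 35 genes with 1000 to under 4000 bp at 10.1 and 9.07 CPM. The 12 X-linked genes with 4000 bp or more were at 0.580 and 0.610 CPM. Among marked genes, Spearman's rho between bp of peak and CPM was −0.26 and −0.27 over 1674 autosomal genes and 0.03 and 0.04 over 262 X-linked genes. These correlations are across genes of 1 peak list, and genes are not independent replicates.

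Seen from expression, the share of marked genes was highest at low but detectable expression and not among the unread genes. Of the 5599 genes at 0 CPM in both cultures, 372 (6.64%) were marked. The share was 17.1% of 1865 genes with some reads but under 0.1 CPM, 21.0% of 2189 genes at 0.1 to 1 CPM and 15.1% of 2606 genes at 1 to 10 CPM. It was 4.71% of 7135 genes at 10 to 100 CPM and 2.82% of 2447 genes at 100 CPM or more. All expressed genes together were marked at 4.23% (SD between cultures 0.0868), below the 8.93% of all genes. On autosomes marked genes also carried less of the mark when expressed, with medians of 4251 bp at 0 CPM and 723 bp at 10 CPM or more. On the X the medians were 347 and 391.5 bp, with no fall. Over all chromosomes the median was 2834 bp at 0 CPM, 1675 bp with some reads but under 0.1 CPM, 1333 bp at 0.1 to 1 CPM, 1105 bp at 1 to 10 CPM and 587 bp at 10 CPM or more. The median fold enrichment of the highest peak of marked genes was 4.90 in all genes under 0.1 CPM, unread ones included, and 4.21 at 10 CPM or more.

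**Figure D2:**
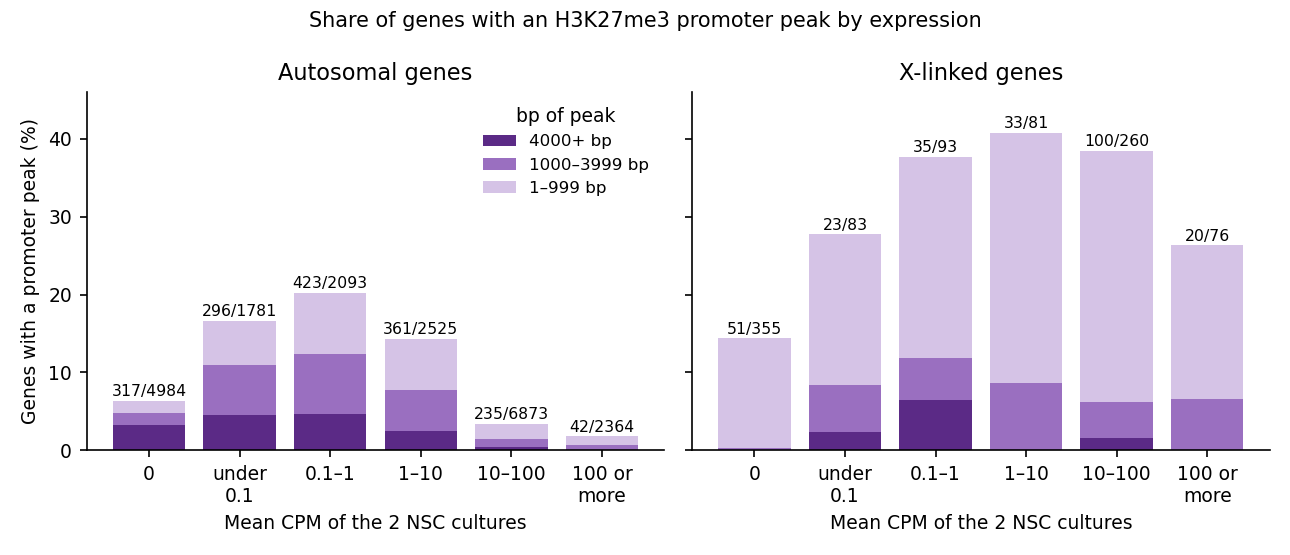
Percentage of genes with an H3K27me3 promoter peak (y axis) by mean CPM of the 2 NSC cultures (x axis), stacked by bp of peak, for autosomal genes on the left and X-linked genes on the right, with marked genes over all genes above each bar. On autosomes the share peaks at 0.1 to 1 CPM (20.2%) and is lowest at 100 CPM or more (1.78%), while 35.7% of X-linked genes at 10 CPM or more are marked.

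The unread genes without the mark held the large clustered families that serve other organs. Of 1092 olfactory receptor genes, which encode the odorant receptors of the nose, 1010 had neither a peak nor a read and 13 (1.19%) were marked. None of 293 vomeronasal receptor genes, which detect pheromones, and none of 57 keratin-associated protein genes of hair were marked. Of 42 beta-defensin genes, which encode antimicrobial peptides, 2 were marked, *Defb25* with 1422 bp and *Defb30* with 227 bp. Together these 4 families supplied 1390 of the genes at 0 CPM, of which 11 were marked (0.791%). Of the other 4209 genes at 0 CPM, 8.58% were marked, still below the share at 0.1 to 1 CPM.

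The marked and unmarked silent genes differed in their CpG content. It is given as the ratio of observed to expected CpG in the 250 bases before and 50 bases after the outermost TSS. Among genes under 0.1 CPM, unread ones included, the median ratio was 0.168 without a peak (quartiles 0.0801 and 0.309), 0.326 with under 1000 bp, 0.495 with 1000 to under 4000 bp and 0.651 with 4000 bp or more. Expressed genes had ratios of 0.778 without and 0.724 with a peak. Over 500 bases on both sides of the start the silent genes gave 0.172 without a peak and 0.656 with 4000 bp or more. Split the other way, of autosomal genes under 0.1 CPM, 2.37% were marked at a ratio under 0.2, 6.75% at 0.2 to 0.4, 21.1% at 0.4 to 0.6, 37.8% at 0.6 to 0.8 and 45.2% at 0.8 or more. In expressed autosomal genes the share lay between 2.68% and 5.12% in each of these 5 classes, and it was highest under 0.2. High CpG content thus went with the mark among silent genes and not among expressed genes.

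**Figure D3:**
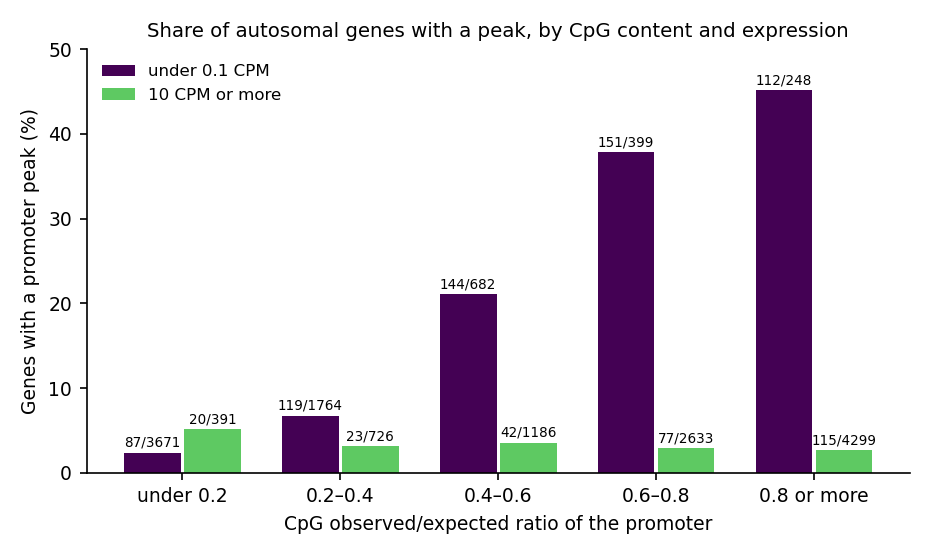
Percentage of autosomal genes with an H3K27me3 promoter peak (y axis) by CpG observed/expected ratio of the promoter (x axis), for genes under 0.1 CPM (dark bars) and at 10 CPM or more (light bars), with marked genes over all genes above each bar. The share of silent genes with a peak goes from 2.37% to 45.2%, and that of expressed genes stays between 2.68% and 5.12%.

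Around the start of autosomal genes, peak coverage in genes under 100 CPM was highest downstream of the TSS, and it was lower in expressed genes than in the 3 classes under 10 CPM. Each gene was aligned on its outermost TSS and coverage taken in steps of 200 bp. In genes at 0.1 to 1 CPM it was highest at 10.2% of bases, 800 to 1000 bp past the TSS, and lowest at 1.61% at the upstream edge 5 kb away. In genes under 0.1 CPM it was highest at 5.35%, within 400 bp past the TSS, against 2.51% on average at the edges of the window. At 1 to 10 CPM the highest value was 4.72%. At 10 to 100 CPM it was 0.714%, and at 100 CPM or more it was 0.468%, upstream of the TSS, while coverage over the start itself was 0.0952%, below the 0.204% at the edges. In the 602 expressed autosomal genes with a single annotated TSS it was 0.456% over the start, and 4.93% in 2764 such genes under 0.1 CPM.

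**Figure D4:**
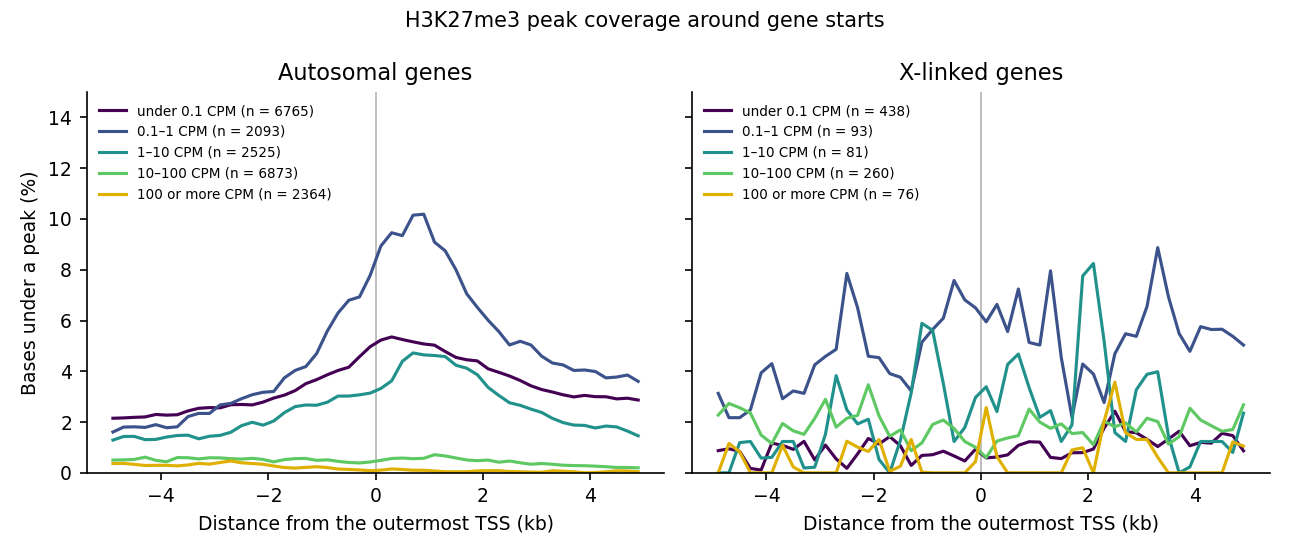
Percentage of bases under an H3K27me3 peak (y axis) by distance from the outermost TSS in kb, negative upstream (x axis), with a line for each class of mean CPM, for autosomal genes on the left and X-linked genes on the right. On autosomes coverage is highest downstream of the TSS at 0.1 to 1 CPM (10.2%) and does not exceed 0.714% at 10 CPM or more, whereas the X-linked lines rest on few genes and show no common summit.

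Whether a peak lay over a TSS of an expressed marked gene went with the bp of peak in its window. These bp are counted around the same TSSs, so more of them makes a TSS inside a peak likelier by construction. A TSS lay inside a peak in 16 of 260 such genes (6.15%) with under 1000 bp, 27 of 104 (25.96%) with 1000 to under 4000 bp and 32 of 41 (78.0%) with 4000 bp or more. Marked genes under 0.1 CPM had a median of 2119 bp against 587 bp in expressed ones, and the shares that follow are not matched for bp of peak. Of 691 marked genes under 0.1 CPM, 415 (60.1%) had a TSS inside a peak, and in 276 (39.9%) every TSS lay inside. Of the 405 expressed marked genes, 75 (18.5%) had a TSS inside a peak and 12 (2.96%) had every TSS inside. On autosomes a TSS lay inside a peak in 408 of 613 silent marked genes (66.6%) and 58 of 277 expressed ones (20.9%). Every TSS lay inside in 274 (44.7%) and 4 (1.44%) of these, and 6 of the 12 such expressed genes were mitochondrial. On the X the shares with a TSS inside a peak were close together, at 7 of 74 (9.46%) and 10 of 120 (8.33%). Counted over TSSs, 847 of 1896 (44.7%) in the silent marked genes lay in a peak and 154 of 2556 (6.03%) in the expressed ones. Expressed marked genes had a median of 5 annotated TSSs and silent ones 2, so a window around any TSS covers more sequence in the former. With autosomal genes of a single TSS alone, 7.45% of 2764 genes under 0.1 CPM, 15.8% of 525 at 0.1 to 1 CPM and 1.99% of 602 expressed genes were marked.

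The 4 genes with the most bp of peak had no read in either culture, and 3 of them were *Hox* genes. Of the 455 genes with 4000 bp or more, the 4 highest values were 32811 bp at *Hoxd3*, 32243 bp at *4930447C04Rik*, 27562 bp at *Hoxb3* and 24566 bp at *Hoxd4*. *4930447C04Rik* overlaps the start of the eye and pituitary homeobox gene *Six6* (10001 bp), which also had no reads. All 39 genes of the *Hox* clusters, which set position along the body axis, had over 4000 bp, from 6512 bp at *Hoxb1* upwards. None exceeded 0.102 CPM in either culture.

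Several families of lineage regulators were marked in most of their members, beside 8.93% of all genes marked and 2.08% with 4000 bp or more. Of 99 other homeobox factors, 86 (86.9%) were marked, 72 of them over 4000 bp, and 65 of the marked ones lay under 1 CPM. Of their 16 expressed members 7 were marked and 9 were not, beside 4.23% of all expressed genes marked. Of 6 *Gata* factors, which specify blood, heart and endoderm, 5 were marked, with 24022 bp at *Gata3*, and none exceeded 0.0341 CPM. Of 9 *Pax* factors 7 were marked, all under 1 CPM, with 17557 bp at *Pax5*, the B-cell regulator. *Pax6*, which is used in cortical progenitors, had no peak and was at 41.5 and 37.0 CPM. Of 17 T-box factors 13 were marked, and of 30 regulators of non-neural lineages 21 were marked, 20 of them under 1 CPM, such as *Foxa2* of endoderm (11506 bp, no reads), *Hand1* of heart and trophoblast (10672 bp, no reads) and *Tal1* of blood (13083 bp, 0.102 and 0.0407 CPM). Of 44 forkhead factors 23 were marked, 19 of them under 1 CPM, whereas 13 without a peak were expressed, including *Foxm1* of the cell cycle (187 and 191 CPM).

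Marked members made up 21.1% of the *Sox* family and 65.0% of the proneural basic helix-loop-helix family, beside 8.93% of all genes. None of their 12 and 3 expressed members was marked, which for so few genes is near the 4.23% of all expressed genes. Of 19 *Sox* factors, 4 were marked and lay at or below 0.205 CPM, namely *Sox17* (9935 bp), *Sox14* (9565 bp), *Sox18* (2094 bp) and *Sox7* (516 bp), which serve endoderm, interneurons and vessels. The 12 expressed members had no peak, with *Sox2* and *Sox8* (247 and 205 CPM) highest in CPM. Of 20 proneural and related factors, 13 were marked, all with a mean under 1 CPM, with 10001 bp at *Olig3*, 9796 bp at *Neurog1* and 9562 bp at *Neurog2*. The 3 expressed ones had no peak, and the highest in CPM were *Olig1* at 1527 and 1403 CPM and *Olig2* at 888 and 957 CPM, which drive the oligodendrocyte lineage. Of 20 neuronal genes, 12 were marked. *Slc32a1* and *Slc17a6*, the vesicular transporters of inhibitory and excitatory neurons, carried 8894 and 8215 bp and no reads. *Gad1*, a GABA synthesis enzyme, was marked over 1467 bp yet stood at 18.2 and 10.2 CPM. Of 19 *Wnt* ligands 14 were marked, 10 of them under 1 CPM. Of the 3 expressed ligands 1 was marked, and the 2 others, *Wnt5a* (142 and 125 CPM) and *Wnt7a* (62.2 and 68.6 CPM), had no peak.

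Genes in general use were marked at about the share of any expressed gene (4.23%) or below. Of 83 ribosomal protein genes, 79 were expressed and 2 (2.41%) were marked, *Rps20* over 329 bp and *Rpl17* over 284 bp, with the nearest peak 4672 and 3737 bp from a TSS. Of 39 proteasome subunits 2 (5.13%) were marked, and none of 36 subunits of respiratory complex I encoded in the nucleus. The 3 genes of highest CPM without a peak were *Eef1a1*, the stearoyl-CoA desaturase *Scd2* (4480 and 4796 CPM) and the creatine kinase *Ckb* (4340 and 3937 CPM). Of the 16 neural stem cell markers 2 (12.5%, beside 8.93% of all genes) were marked, *Prom1* (828 bp, 6.85 and 5.13 CPM) and *Hes1* (683 bp, 48.0 and 37.2 CPM), with the peak of *Hes1* 2107 bp from its nearest TSS. Of 10 astrocyte genes 1 (10%) was marked, *Gjb6*. Some lineage genes under 1 CPM had no peak, among them the myelin genes *Mog* and *Mag* at 0.0814 CPM or less and the astrocyte gene *Gfap* at 0.750 and 0.529 CPM.

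The 405 expressed marked genes were 277 on autosomes, 120 on the X, 7 in the mitochondrial genome and 1 on an unplaced scaffold (*AC149090.1*, 46.6 and 61.4 CPM). Most carried little of the mark, as 260 had under 1000 bp, 104 had 1000 to under 4000 bp and 41 had 4000 bp or more. In 385 of them both cultures were at 10 CPM or more. The median difference between the cultures was 0.16 on the log2 scale, and it was 0.14 for expressed genes without a peak. The median difference was 0.23 for the 41 expressed genes with 4000 bp or more. Of the 405, 3 (0.741%) differed by more than 2-fold between cultures, against 23 of 9177 expressed genes without a peak (0.251%). The 3 were *P4ha2*, the glucose-responsive *Txnip* (22.8 and 9.44 CPM) and the homeobox gene *Otx2* (21.1 and 10.3 CPM), all higher in replicate 1. The level of 10 CPM cut through a continuum, with *Rap1gap2* (10.4 and 9.68 CPM, 2348 bp) just inside and *Nhsl2* (10.1 and 9.93 CPM, 2190 bp) just outside.

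**Figure D5:**
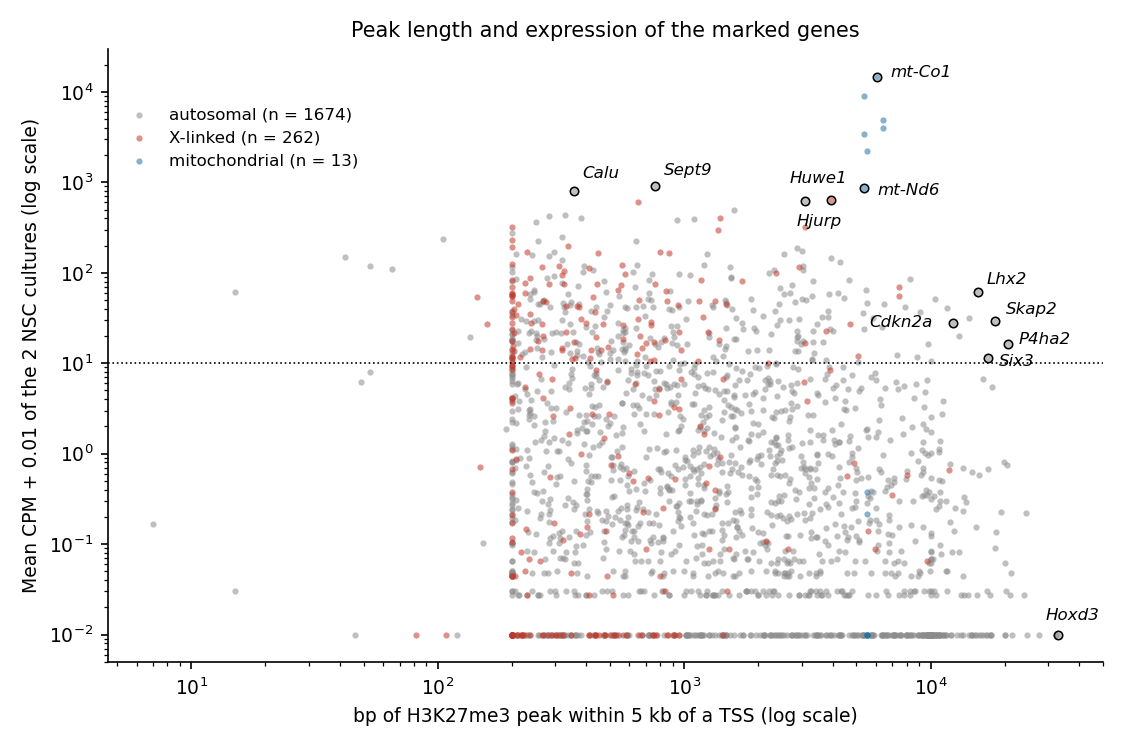
Mean CPM + 0.01 of the 2 NSC cultures (y axis, log scale) against bp of H3K27me3 peak within 5 kb of a TSS (x axis, log scale) for the marked genes, in grey for 1674 autosomal, red for 262 X-linked and blue for 13 mitochondrial genes. The dotted line is 10 CPM. The row at the bottom holds genes without reads, *Lhx2*, *Skap2* and *Cdkn2a* combine 12318 bp or more with mean levels of 28.0 to 60.6 CPM, and the points at 200 bp are genes with a single peak of the smallest length called.

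Of the 10 expressed genes with the most bp of peak, 3 were transcription factor genes, *Lhx2*, *Six3* and *Dmrta2*. *Lhx2* (ENSMUSG00000000247), a LIM homeobox gene of cortical progenitors, carried 15604 bp in 16 peaks and was at 60.9 and 60.4 CPM. Its peaks left short gaps at the gene start: the outermost of 7 TSSs lay 190 bp outside a peak and 4 others inside. *Six3*, a homeobox gene of the anterior forebrain and eye, carried 17161 bp and was at 15.1 and 7.89 CPM, so that the cultures lay on both sides of the 10 CPM limit. Its outermost TSS lay in a peak of 15422 bp (chr17:85605351-85620772), and the other two lay 62 and 5 bp outside a peak. *Dmrta2*, which acts in the cortical hem, had 10001 bp, the whole window of its single TSS, and was at 10.7 and 10.5 CPM. Further down the list, *Emx2* (9745 bp, 16.6 and 16.0 CPM), needed for growth of the telencephalon and chosen after its values were seen, also had every TSS in a peak. All but *Six3* were at 10 CPM or more in both cultures, and the counts do not tell whether marked and transcribed copies lay in the same cells.

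The other genes of this group carried the mark at part of their starts. *Cdkn2a*, the classical target of Bmi1, encodes the cell cycle inhibitor p16Ink4a and, from a start further upstream, p19Arf. It carried 12318 bp and was at 30.2 and 25.8 CPM. The peak lay at chr4:89268461-89285012 in mm10. The downstream TSS at position 89282192 of chromosome 4 lay inside this peak of 16552 bp with a fold enrichment of 7.35, whereas the upstream TSS at 89294653 lay 2083 bp outside any peak. Counts per gene do not separate the transcripts of the 2 starts, and reads were counted without regard to strand, so overlapping genes on opposite strands are not separated either. The neighbouring inhibitor *Cdkn2b* had no peak and was at 8.83 and 6.47 CPM. *Skap2*, an adaptor of immune cell adhesion, carried 18258 bp and was at 31.3 and 28.0 CPM, with 1 of 7 TSSs in a peak and the 3 outermost 111 to 145 bp away from one. *Tenm4*, a teneurin of neuronal wiring, carried 13076 bp with 6 of 11 TSSs inside (19.3 and 20.5 CPM), and *Rnf220*, a ubiquitin ligase, 10440 bp with the 3 outermost of 14 TSSs inside (54.8 and 47.4 CPM). *Sfi1*, a centrosomal gene, had 10 of 18 TSSs inside a single peak of 15937 bp over its 5′ end (27.5 and 35.97 CPM), and the other starts lay at least 6245 bp from a peak. Its fold enrichment of 13.5 was the highest of the 10 expressed genes with the most bp, ahead of 7.97 at *Rnf220*. As no input library is named, the mark and high signal from other sources cannot be told apart there. *P4ha2*, a collagen prolyl hydroxylase, had 18 separate peaks of at most 3075 bp, with 11 of 13 TSSs inside, and its 25.3 and 7.40 CPM differed by 3.42-fold between the cultures. *Cdk6*, a kinase of the G1 phase chosen after its values were seen, carried 6351 bp with only its outermost TSS inside (24.995 and 25.8 CPM).

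Some expressed genes shared a peak with a neighbour under 1 CPM, at about the share found over all marked genes. Of the 277 autosomal genes, 44 (15.9%) shared a peak with another protein-coding gene under 1 CPM, where shared means that a TSS of both lay within 5 kb of the peak. This held for 14.8% of all marked autosomal genes and for 22.8% of those under 0.1 CPM. The neighbour had more bp of peak in 21 of the 44. No TSS of the expressed gene lay in a peak in 35 of the 44 and in 219 of all 277. The examples that follow were chosen after their values were seen, except *Lrba*, *Lrp1* and *Hjurp*, and in all of them but *Lrba* the neighbour had more bp. *Lrba*, a vesicle trafficking gene at 45.0 and 36.6 CPM, had 11705 bp, and within its bounds lies *Mab21l2*, an eye development gene at 0.136 and 0.529 CPM with 9212 bp. Of the 6 TSSs of *Lrba* 2 lay in a peak, and the outermost lay 298001 bp from the nearest peak. *Bub3*, of the spindle checkpoint, was at 129.9 and 130.4 CPM, with its nearest TSS 703 bp from a peak of 20447 bp that it shared with the unread homeobox gene *Hmx2* (15289 bp). *Aatf* (25.4 and 22.5 CPM) lay 779 bp from a peak of 21264 bp shared with *Lhx1*, a LIM homeobox gene without reads (13469 bp). *Rsrc1*, a splicing factor (41.1 and 33.3 CPM), shared a peak of 20607 bp with *Shox2* (11968 bp, 1.23 and 0.285 CPM), and its outermost TSS lay inside it. *Lrp1*, an endocytic receptor at 454 and 525 CPM, carried 1586 bp, with the nearest peak 3156 bp from a TSS and shared with the neuropeptide-like *Nxph4* (6314 bp). *Hjurp*, the chaperone of centromeric histone, was at 625 and 613 CPM with 3079 bp and shared its peaks with the cold receptor gene *Trpm8* (6015 bp, 0.0341 and 0 CPM).

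The 6 expressed marked genes of highest CPM lay in the mitochondrial genome. All 13 protein-coding genes of this genome had 4000 bp or more under 2 peaks that covered 72.2% of it, and 7 were at 10 CPM or more, from *mt-Co1* (12673 and 16439 CPM), a subunit of cytochrome oxidase, to *mt-Nd6* (671 and 1042 CPM). Of the others, 4 were at 0 CPM and 2 at 0.1 to 1 CPM, and the reason for such low counts was not tested. Mitochondrial DNA carries no nucleosomes, and the list of NSC Bmi1Over also has 3 peaks there, over 65.2% of it. The 13 genes are included in the counts above, the 4 without reads among the silent marked genes, and on autosomes alone the number of expressed marked genes is 277. The 2 nuclear marked genes of highest CPM had short peaks. *Sept9*, a septin of the cytoskeleton, carried 764 bp (975 and 868 CPM) and *Calu*, a calcium-binding protein of the endoplasmic reticulum, 357 bp with the peak 4590 bp from a TSS (725 and 879 CPM). Per kb of exon their levels were 122 and 172 CPM, against 9422 CPM per kb for *mt-Co1*. Of 26 Polycomb subunit genes 3 (11.5%, beside 8.93% of all genes) were marked, *Pcgf2* (4778 bp, 6.72 and 8.18 CPM), *Pcgf1* (3814 bp, 6.89 and 8.18 CPM) and *Cbx2* (2654 bp, 28.7 and 31.1 CPM), while 23 of the 24 expressed had no peak, with *Ezh2* at 138 and 133 CPM and *Bmi1* at 143 and 127 CPM.

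The X chromosome held 3454 of the 12982 peaks (26.6%), which is 20.2 peaks per Mb against 3.83 on autosomes. They were short, with a median of 281 bp against 401 bp, and covered 0.707% of the X and 0.416% of the autosomes. Of 948 X-linked genes 262 (27.6%) were marked, against 1674 of 20620 (8.12%) on autosomes. Of expressed genes, 120 of 336 (35.7%) were marked on the X and 277 of 9237 (2.999%) on autosomes, and of genes under 0.1 CPM 16.9% and 9.06%. On the X, 18.3% of marked genes had no more than 200 bp of peak, the smallest length called, and on autosomes 5.68%. Of the expressed marked genes, 10 of 120 (8.33%) had a TSS in a peak on the X and 58 of 277 (20.9%) on autosomes. *Huwe1*, a ubiquitin ligase at 637 and 647 CPM, carried 3949 bp in 12 peaks, none over its 18 TSSs, and the glycolytic *Pgk1* carried 652 bp at 769 and 436 CPM. *Pls3* (7465 bp, 73.8 and 65.6 CPM) and the Polycomb-associated corepressor *Bcor* (7413 bp, 56.7 and 55.2 CPM) had the most bp. The 4 genes known to escape X inactivation that were looked up after the data were seen, *Ddx3x*, *Kdm5c*, *Eif2s3x* and *Kdm6a*, had no peak and were at 509 and 479, 283 and 276, 130 and 121, and 66.6 and 60.3 CPM.

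*Xist*, the RNA that coats the inactive X, was at 4590 and 4667 CPM in the 2 RNASeq cultures. The sex of the culture behind the peak list is not given. Neither peaks nor reads were assigned to one or the other X chromosome, so the active and inactive copies cannot be told apart, and the part of X inactivation in these values was not tested. In the list of NSC Bmi1Over, 13.9% of peaks lay on the X, which is 5.53 peaks per Mb against 2.35 on autosomes, and they covered 0.160% of it against 0.182% of the autosomes.

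Whether the marked genes also had a peak in NSC Bmi1Over was counted from 1 library for each list. A peak lay within 5 kb of a TSS there for 406 of the 691 marked genes under 0.1 CPM (58.8%) and for 137 of the 405 expressed marked genes (33.8%), beside 922 of all 1950 marked genes (47.3%). Of all 21841 genes 4.46% had a peak in that list. Of the expressed marked genes it was 33 of 260 (12.7%) with under 1000 bp, 64 of 104 (61.5%) with 1000 to under 4000 bp and 40 of 41 (97.6%) with 4000 bp or more. On autosomes alone these were 11.2%, 62.1% and 100%. *Lhx2*, *Six3*, *Cdkn2a* and *Skap2* had between 4601 and 10632 bp there, whereas *Sept9*, *Calu*, *Hjurp* and *Lrp1* had none. The deposited lists hold no read depth, and the study gives aligned read totals for all replicates without saying which one of each condition was kept. The deeper NSC replicate had more reads than either NSC Bmi1Over replicate, and whether depth bears on these shares was not tested.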

How the data were processed

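The authors sequenced H3K27me3 ChIPSeq and poly(A) RNASeq libraries. Per the labels and methods, ChIPSeq reads were trimmed (Trim Galore), aligned to mm10 with Bowtie2 2.3.4, with reads mapping to several places discarded, and broad peaks were called with MACS2, with its shifting model and dynamic lambda disabled. No input library is named, and 1 library was kept for each condition. The deposited peak lists give a fold enrichment (a ratio) and a −log10 of p and q for each peak. RNASeq reads were counted per gene by STAR, and the deposited tables hold raw counts, of which the unstranded column was used. The deposited lists hold no read depth. The methods give aligned read totals for all replicates and say that the weakest were discarded, without naming the replicate kept.

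From the deposited counts, CPM was computed here over all reads counted on genes. These were 72.2% and 69.8% of the reads in the 2 tables, and rows for unassigned reads were left out. Peaks were joined to protein-coding genes of GENCODE vM21 within 5000 bp of any TSS, and 1 bp was enough. Python 3.11.15, pandas 2.3.3, numpy 2.4.6, scipy 1.17.1 and matplotlib 3.10.9 were used, and R 4.3.3 with edgeR 4.0.16 and DESeq2 1.42.0 for alternative scaling factors only. The counting of peak bp in the windows and the placing of genes into groups were tested on made-up intervals and values, and the other steps were not. No significance test was run, as there was 1 ChIPSeq library and 2 RNASeq cultures, and genes are not replicates of a condition. The study describes the NSC cultures as biologically independent.

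Genes named individually were the 10 expressed marked genes with the most bp and the 10 of highest CPM, the leading genes of each group by bp of peak, and members of the gene lists. Genes named beyond these were chosen after their values were seen. The groups and gene lists were chosen with earlier results of these data known. The 2 RNASeq libraries of NSC Bmi1Over were not used. Alternatives covered the window, the TSS, peak thresholds, scaling, exon length, low counts, strand columns, neighbouring TSSs and leaving out each culture. Some genes are not reported here.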

Additional observations from a re-analysis of the deposited data

How the results depend on the processing

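With 1 ChIPSeq library the peak list has no replicate error, and 2 RNASeq cultures give only a rough SD. Of 15 alternatives, 14 kept the fall of the median CPM over the groups by bp of peak. The exception, peaks of at least 1000 bp, gave 4.79 CPM at 0 bp and 5.27 CPM with under 1000 bp of such peaks in the window. In all 15 the share at 10 CPM or more fell with bp of peak, and the share marked was lowest at 10 CPM or more and highest at 0.1 to 1 CPM. Of 179 recomputed medians and percentages 65 stayed within 1 SD of the 2 cultures, and of 15 recomputed numbers of expressed marked genes, which have no SD, 8 stayed within 1.5 times of 405.

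The medians and percentages that moved beyond 1 SD, and the numbers of genes that moved most, are given in the order median CPM at 0 bp, median CPM at 4000 bp or more, percentage of the latter genes at 10 CPM or more, percentage of expressed genes marked, and number of expressed marked genes. The reported values are 5.57, 0.0544, 8.79%, 4.23% and 405. Within 1 kb of a TSS, where 4000 bp can only be reached by genes with several TSSs, the last 4 were 0, 6.08%, 2.00% and 192, and within 2 kb 0, 7.37%, 2.71% and 260. With the outermost TSS alone the percentages were 7.49% and 3.33%, and the number was 319. Peaks with a −log10 q of at least 3 gave 5.12 CPM at 0 bp, 7.65%, 2.15% and 206, and peaks of at least 1000 bp gave 4.79 CPM, 7.82%, 1.13% and 108. A fold enrichment of at least 5 gave 4.61 and 0.0272 CPM, 7.04%, 0.845% and 81. Per kb of exon, with the limit of 10 taken per kb, they were 1.38, 0.0181, 3.63%, 2.58% and 125. With at least 10 reads, which leaves no gene under 0.1 CPM, the first 3 were 31.6, 1.33 and 22.1%. The sum of the stranded columns gave 6.61 CPM at 0 bp and 9.12%. Genes with no other TSS within 10 kb gave 2.09 and 0.0918 CPM, 6.88%, 4.92% and 261. Autosomal genes only, an alternative added after the data were seen, gave 6.91 CPM at 0 bp, 6.53%, 2.999% and 277. Beyond what the filters themselves remove, the cause of these shifts was not tested.

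TMM and DESeq2 scaling moved none of the 2 medians and 2 percentages beyond 1 SD and gave 405 and 404 genes. Leaving out either culture gave ranges of 5.41 to 5.73 CPM, 0.0407 to 0.0682 CPM, 8.57% to 9.01%, 4.15% to 4.27% and 395 to 411 genes.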

Other observations

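The voltage-gated potassium channels, which set the firing of neurons, held 14 marked genes of 40, of which 10 were under 1 CPM. *Kcnc4* was marked over 5323 bp with every TSS in a peak and was at 38.9 and 33.0 CPM. Of 7 inhibitors of cyclin-dependent kinases 2 were marked, *Cdkn2a* and *Cdkn1c*. Of 21 cell cycle genes, all expressed, 2 were marked, *Cdk6* and *Bub1*. These are 35%, 28.6% and 9.52% of the 3 lists, beside 8.93% of all genes, which the share of the cell cycle genes is near. The lists are given as values, with no test.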
